A study of Rattus norvegicus with 11 samples.

Results

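The 10 soleus libraries described here, of 11 in the study, were the 5 with the highest and the 5 with the lowest transcript level of respiratory complex I. The count of each row was divided by its library's total and multiplied by 1000000 (the unit is abbreviated CPM), and the complex I score of a library was the mean of log2(CPM + 1) over the 34 rows that name a subunit of the complex. The measured values that chose the libraries were thus these 34 rows, so every difference in transcript level between the high and the low set is given below as a description, without a p-value. Tests are given only for measures that the score did not use, which were the diet of the mother and the measurements of the animals.

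Complex I, NADH:ubiquinone oxidoreductase, is the entry point for electrons from NADH into the respiratory chain of the inner mitochondrial membrane. It passes them to ubiquinone and pumps protons, and complexes III and IV pump further protons, which drive ATP synthase (complex V). Most of its subunits are encoded in the nucleus, among them all rows of the score. The soleus is a postural muscle made mainly of slow, oxidative fibres, which are rich in mitochondria.

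The animals were male Sprague Dawley rats aged 12 months, each taken from a litter of its own. The high-fat group held 5 rats whose mothers ate a diet high in fat (23.3% or 23.5%, as the 2 descriptions of the diet put it) with 20% sucrose. The control group held 6 rats whose mothers ate 6% or 7% fat with 10% sucrose. Mothers were fed from 3 weeks before mating until the end of lactation, and all offspring were weaned on day 21 onto the same standard chow. Rats fasted for 1 to 2 hours before anaesthesia, and polyadenylated RNA of whole muscle was sequenced for 36 cycles. Animals are numbered here within each group in the order of the sample records. Library totals were 10156225 to 15358816 counts in the high set and 10560300 to 14910069 counts in the low set. The slow myosin gene Myh7 lay between 17061 and 25682 CPM in every library.

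In order of falling score, the high set held control 4, control 6, high-fat 3, high-fat 2 and control 2, and the low set held high-fat 1, control 5, control 1, control 3 and high-fat 5. All values by library are given below in this order. The scores of the high set were 8.38, 8.28, 8.15, 8.09 and 8.09, with a mean of 8.20 ± 0.127 (SD, n = 5). Those of the low set were 8.06, 8.06, 8.05, 7.81 and 7.78, with a mean of 7.95 ± 0.143 (SD, n = 5). High-fat animal 4, left out as the middle library, scored 8.06. Libraries ranked 4 to 9 lay within 0.0439 of each other, while the step between ranks 9 and 10 was 0.242, so control animals 4 and 6 at the top and control animal 3 and high-fat animal 5 at the bottom stood apart. The last library inside the high set stood only 0.0301 above the middle library, and the first inside the low set 0.0037 below it. Counting error of a score was 0.0043 to 0.0061. The 34 rows took 1.28 ± 0.125% of all counts in the high set and 1.07 ± 0.110% in the low set.

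**Figure D1:**
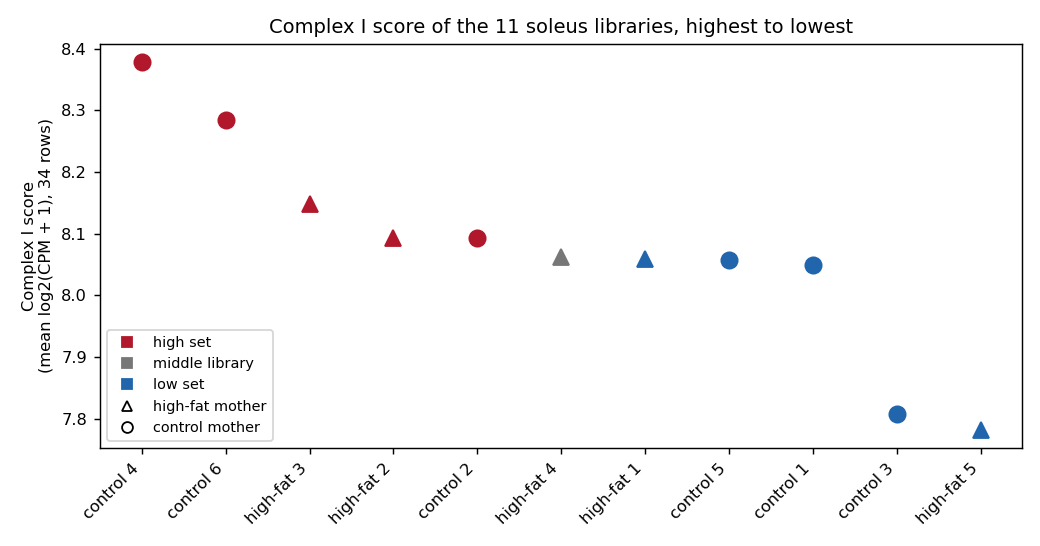
Complex I score of each library (vertical axis, mean log2(CPM + 1) over 34 rows; the axis does not start at 0), ordered from highest to lowest. Triangles are animals of high-fat mothers and circles animals of control mothers. The 2 libraries at each end stand apart, and ranks 4 to 9 lie within 0.0439.

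The maternal diets were spread evenly over the sets. The high set had 2 high-fat and 3 control animals, and so had the low set (Fisher's exact test, two-sided, p = 1). Over all libraries the score was 8.03 ± 0.143 in high-fat animals (n = 5) and 8.11 ± 0.200 in control animals (n = 6), and the difference of -0.0824 was smaller than the spread within either diet (exact permutation test over 462 splits, two-sided, p = 0.513). In a fit of diet across all genes (edgeR's quasi-likelihood test, Benjamini-Hochberg adjustment), 0 of 10814 genes passed an adjusted p of 0.05 and 523 had an unadjusted p under 0.05. With the set as a covariate, in a fit that left out the middle library, edgeR's test called 0 of 10846 genes. There 438 had an unadjusted p under 0.05. With the middle library left out and no covariate, it also called 0 of 10846, and 361 were under 0.05. DESeq2 on all 11 libraries, without the covariate, called 7.

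Within the score, the subunit rows differed unequally. A total of 33 of the 34 rows had a higher mean in the high set, with a median difference of 0.27 log2. Of these rows 5 did not overlap between the sets, where 0.700% of genes outside the score were higher without overlap. Since the 34 rows chose the sets, nothing is read from this count. The largest differences were in Ndufb2, Ndufs7, Ndufb9 and Ndufs5. Ndufs7, an iron-sulfur subunit of the arm that faces the matrix, had 557, 540.3, 452, 523 and 432 CPM in the high set, against 418, 386, 365, 390.3 and 322 CPM in the low set. Ndufs5, an accessory subunit, had 46.8, 41.4, 36.2, 39.8 and 33.99 CPM in the high set, against 31.1, 30.0, 28.4, 31.4 and 29.7 CPM in the low set. Both were higher in every library of the high set than in any of the low set on CPM, and both overlapped after TMM scaling, edgeR's correction for the makeup of each library. At the other end stood Ndufs1, the largest subunit of the matrix arm, with 318, 410.4, 420.4, 393 and 445 CPM in the high set, against 312, 469.7, 475, 379 and 438 CPM in the low set, a difference of -0.05 log2, and Ndufb6, at 0.04 log2. The signs of both turned when single libraries were left out. The name pattern of the score also takes in Ndufa4, which is now counted with complex IV.

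Nuclear genes of the respiratory chain are known targets of the factor NRF1, so their promoters were read from RefSeq (build GRCr8, 250 bases before to 50 bases after the gene start). The NRF1 motif searched was GCGCA and GCGC with any 1 base between them, on either strand. It was in 7 of 31 matched promoters of score rows (22.6%), in 7 of 33 of complexes II to V (21.2%) and in 4.26% of all 33469 promoters. The motif of the estrogen-related receptors, TCAAGGTCA, was in 0 of 31, in 2 of 33 and in 0.433% of all promoters. The NRF1 motif was in 0 of 10 promoters of the leading higher genes named below, Atp5g1 among them. It was in 0 of 9 matched promoters of the leading lower genes. Among chaperones and stress-response genes of the endoplasmic reticulum, which lay on the low side, it was in 2 of 15 (13.3%). The promoters of Ndufs5 (chr5:141264353-141264652, minus strand) and of Atp5g3, named Atp5mc3 in RefSeq (chr3:79220615-79220914, minus strand), are shown 5′ to 3′ along the gene because both genes separated the sets and both hold the NRF1 motif, in capitals. A match describes these letters and does not show binding.
Ndufs5: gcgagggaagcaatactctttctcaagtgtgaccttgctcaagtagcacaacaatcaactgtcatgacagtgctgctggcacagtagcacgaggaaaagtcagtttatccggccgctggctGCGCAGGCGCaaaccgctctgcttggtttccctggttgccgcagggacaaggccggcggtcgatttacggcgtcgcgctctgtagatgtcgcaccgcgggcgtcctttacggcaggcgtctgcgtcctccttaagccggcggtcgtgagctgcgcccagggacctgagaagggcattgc
Atp5g3: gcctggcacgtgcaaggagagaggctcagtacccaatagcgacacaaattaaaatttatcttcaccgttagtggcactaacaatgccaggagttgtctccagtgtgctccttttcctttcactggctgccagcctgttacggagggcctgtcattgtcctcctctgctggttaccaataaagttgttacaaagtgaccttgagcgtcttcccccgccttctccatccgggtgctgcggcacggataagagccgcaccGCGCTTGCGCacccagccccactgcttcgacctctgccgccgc

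Outside the score, 10573 genes had a mean of at least 1 CPM. Of these, 74 were higher in every library of the high set than in any of the low set (0.700%) and 143 were lower (1.35%), or 2.05% in either direction. With TMM scaling the counts were 107 (1.01%) and 90 (0.851%), so the share of higher genes among those without overlap was 34.1% on CPM and 54.3% with TMM. The median gene differed by -0.11 log2 on CPM and by -0.01 with TMM, a shift of 0.0937 between the scalings. The 50 most abundant rows took 42.3 ± 2.49% of counts in the high set and 39.6 ± 1.67% in the low set. Since the libraries were chosen on these same counts, nothing is read from the number of genes that separated.

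The rest of the respiratory chain lay higher in the high set throughout. All 4 measured genes of complex II (median difference 0.23 log2), all 9 of complex III and cytochrome c (0.31), all 11 of complex IV (0.31) and all 15 of complex V (0.24) had higher means there, against 30.1% of all genes. Genes without overlap numbered 1, 1, 3 and 3 in these lists, all higher. Of all genes outside the score, 0.700% were higher without overlap. With TMM scaling the medians of the lists were larger, between 0.34 and 0.41, but only 2 genes of complex V still separated and none of the others. The share over all genes was then 1.01%. Atp5g1 and Atp5g3 encode the c subunit, whose ring rotates in ATP synthase, and reads of 36 bases may not tell such near copies apart. Atp5g1 had 563, 438, 431, 391 and 383 CPM in the high set, against 304, 359, 296, 285 and 267 CPM in the low set, a difference of 0.54 log2. Atp5g3 had 1149, 1347, 1220.5, 1122 and 1234 CPM in the high set, against 993, 1085, 1049.8, 860.4 and 835 CPM in the low set, a difference of 0.34 log2. The sets did not overlap for either gene, and the middle library, at 337 and 1072 CPM, lay within the range of the low set. Among complex IV genes, Cox5b, a nuclear subunit of cytochrome c oxidase, differed by 0.41 log2 and Cox7c, a small subunit, by 0.48 log2, both without overlap on CPM only.

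Other mitochondrial functions differed less. Of 18 genes of fatty acid oxidation 15 had a higher mean in the high set (median 0.20 log2, and 0.01 without the 2 lowest libraries), among them Slc25a20, the carnitine carrier of the inner membrane (0.37), Acaa2, a thiolase of the matrix (0.37, and 0.21 without control animal 3), and Cpt2, carnitine palmitoyltransferase 2 (0.34). The 18 genes of the citrate cycle and pyruvate dehydrogenase had a median of 0.08, with 11 higher, and 0.03 without high-fat animal 1 and 0.00 without the 2 lowest libraries. The 68 genes of the mitochondrial ribosome also had a median of 0.08, with 57 higher. Of 10 assembly factors of complex I, 6 were higher and 4 lower, with a median of 0.09 log2 that was 0.01 within control animals and 0.02 within high-fat animals, and -0.02 without control animal 3. The 13 regulators of mitochondrial biogenesis had a median of -0.11, as all genes had, with 4 higher. Ppargc1a, the PGC-1 alpha coactivator, had 5.95, 9.31, 6.35, 11.9 and 11.9 CPM in the high set, against 10.5, 6.53, 5.03, 5.68 and 8.79 CPM in the low set, and the sets overlapped. Its difference was 0.54 log2 within control animals (3 against 3) and -0.12 within high-fat animals (2 against 2). Of 23 genes of mitochondrial import and cristae, a list chosen after values were seen, 16 were higher, and Minos1, a cristae organising protein, separated the sets at 0.39 log2.

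Fast-fibre genes had higher means in the high set, but not in every library of it. Of 13 measured fast-fibre genes 10 were higher (median 0.66 log2), and none separated the sets. Myh2, the IIa myosin heavy chain, had 2101, 2143, 275, 2107 and 1878 CPM in the high set, against 566, 591, 496, 111 and 382 CPM in the low set. High-fat animal 3 of the high set lay below 4 of the 5 libraries of the low set, and the middle library had 102 CPM. Fast troponin I, Tnni2, was likewise low in high-fat animal 3, with 1479.5, 1190.1, 198, 1247 and 1006 CPM in the high set, against 499, 536, 321, 61.6 and 245 CPM in the low set. The list's median was 1.07 log2 within control animals and 0.12 within high-fat animals, and this difference between diets was not tested. The exceptions were Pvalb (-1.16), Actn3 (-0.64) and Myh1 (-0.30, and 0.37 without control animal 5). For Myh4, the IIb myosin, the value was 0.56 log2, and -0.21 without control animal 2.

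Slow-fibre genes showed little difference. Their median over 12 genes was -0.07 log2 on CPM and 0.03 with TMM scaling, so its sign depended on the scaling. Myh7 had 17061, 19083, 18283, 22843 and 19166 CPM in the high set, against 17693, 23214, 24654, 22781 and 20241 CPM in the low set. The sets overlapped, at -0.17 log2. The slow and ventricular light chain Myl3 went the other way at 0.33 log2. Glycolytic genes, which fast fibres express strongly, had higher means in 15 of 17 cases (median 0.18 log2). Pgam2, muscle phosphoglycerate mutase, had 1682, 1757, 1059.9, 1598 and 1422 CPM in the high set, against 1246, 1155, 985, 900.1 and 840.1 CPM in the low set. High-fat animal 3 was the lowest of the high set for Pgam2 as for Myh2. Slc2a4, the insulin-responsive glucose transporter GLUT4, differed by 0.34 log2, within a list of insulin action genes of which 9 of 12 were lower on CPM, where 69.9% of all genes were, and 5 of 12 with TMM scaling.

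**Figure D2:**
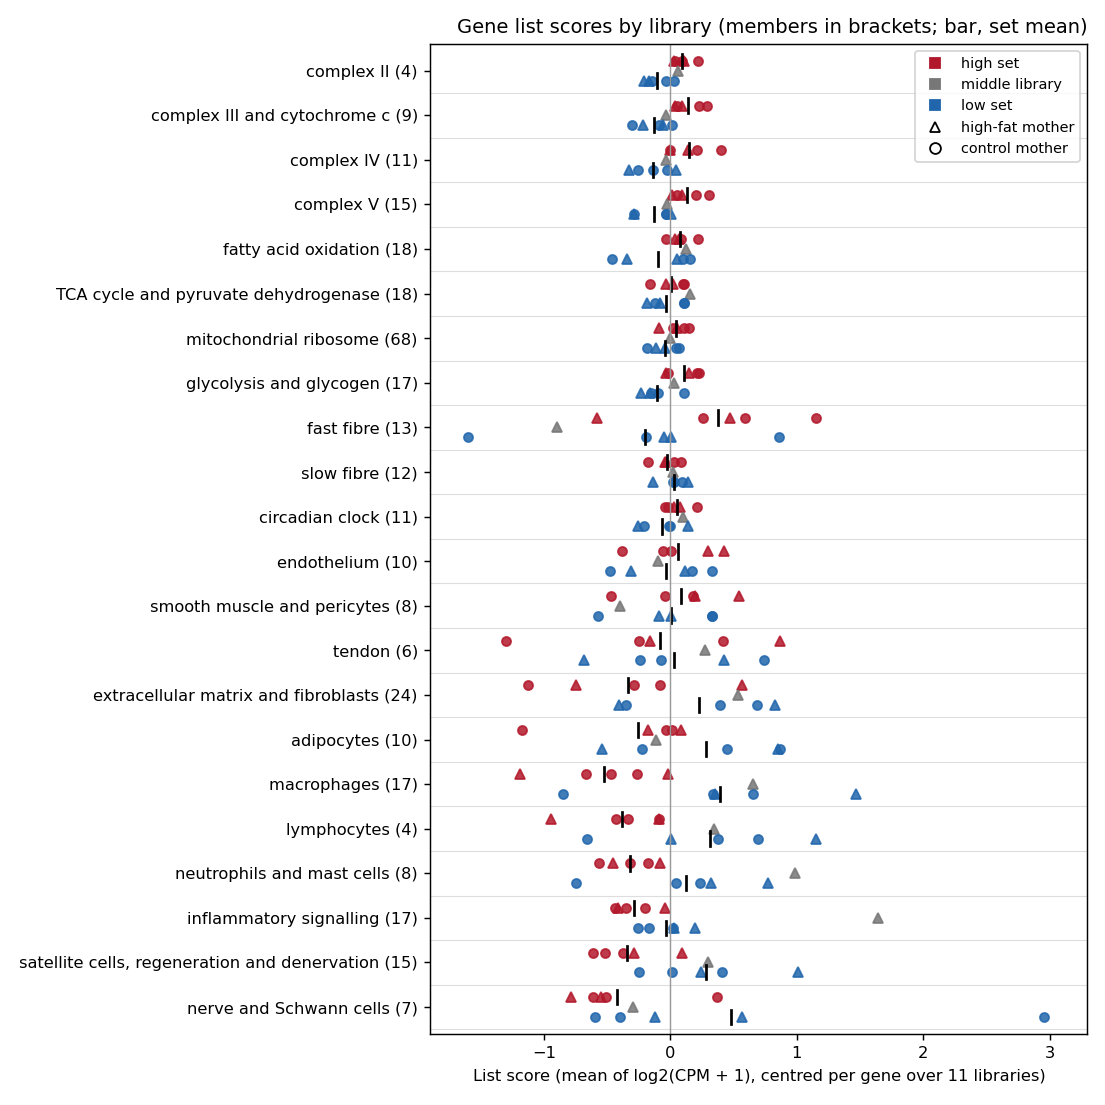
Score of 22 gene lists (rows, number of measured members in brackets) in each library; the horizontal axis is the mean log2(CPM + 1) of the members after each gene's mean over 11 libraries was subtracted. Points of the high set lie above those of the low set in each row, the middle library between them, and vertical bars are set means; the respiratory chain lists are shifted to the right in the high set, and the connective tissue, immune and nerve lists to the left with wide overlap.

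Connective tissue and immune genes lay on the low side of the score. On CPM, 69.9% of all genes had lower means in the high set, and the median gene was at -0.11 log2. In bulk tissue, fewer cells of a type and less RNA per cell cannot be told apart. All 24 measured genes of extracellular matrix and fibroblasts had lower means in the high set (median -0.58 log2, and -0.48 with TMM scaling). Of them 0 separated the sets. Their summed level was 2216 to 7267 CPM in the high set and 3718 to 8038 CPM in the low set. Col3a1, a fibrillar collagen, had 507, 271, 866, 281 and 659.8 CPM in the high set, against 296, 469, 968, 1204 and 1010.3 CPM in the low set. High-fat animal 3 was high and high-fat animal 1 low against the rest of their sets. Leaving out control animal 6 brought the list's median to -0.37 log2. Within control animals the median was -0.69 log2 and within high-fat animals -0.21. Tendon genes gave a median of 0.00, with 3 higher and 3 lower, which was -0.47 within control animals and 0.73 within high-fat animals. The difference between diets was not tested for either list.

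All 17 macrophage markers had lower means in the high set, with a median of -0.89 log2, and -0.78 with TMM scaling. On CPM the median was -0.53 within control animals and -1.48 within high-fat animals (difference not tested). Their summed level was 507.5 to 1142 CPM in the high set and 685.4 to 3176 CPM in the low set, with 1835 CPM in the middle library. Cd163, a scavenger receptor of tissue macrophages, had 25.9, 17.5, 22.9, 12.0 and 16.3 CPM in the high set, against 51.9, 14.7, 32.3, 32.4 and 121 CPM in the low set. High-fat animal 5 had the highest level of the low set and control animal 5 the lowest, below 4 of the 5 high libraries. Without high-fat animal 5 the difference for Cd163 was -0.68 log2, against -1.08 with it. Mrc1, the mannose receptor (-1.12), Ctss, cathepsin S (-1.13), and Emr1, the F4/80 antigen (-1.20), lay on the same side, and none of the macrophage genes separated the sets. Of 12 listed lymphocyte markers 4 reached 1 CPM, all with lower means in the high set, and their sum was 26.0 to 66.7 CPM there and 34.9 to 233 CPM in the low set. The B cell marker Ms4a1 averaged 0.0580 CPM over all libraries, near 0. Ptprc, which encodes CD45, differed by -1.02 log2. Of 8 mast cell and neutrophil markers 7 were lower, with Cpa3, mast cell carboxypeptidase, at -0.93. Among the neutrophil markers, S100a8 was at 0.08, S100a9 at -0.17 and Csf3r at -0.20 log2, where the median of all genes was -0.11. The sum of the 8 markers was 38.8 to 73.4 CPM in the high set and 34.8 to 171.6 CPM in the low set. Of 17 inflammatory signalling genes 15 were lower (median -0.31), and 14 with TMM scaling (median -0.23). For these genes the middle library stood far above both sets with a sum of 1228 CPM, against at most 658.6 CPM elsewhere.

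Of 10 fat genes 8 had lower means in the high set on CPM, where 69.9% of all genes did, and 7 with TMM scaling. None of them separated the sets, and single libraries moved these values. Adipoq, the adipocyte hormone adiponectin, had 4.83, 30.4, 37.3, 24.5 and 40.0 CPM in the high set, against 9.29, 28.3, 71.8, 103 and 104 CPM in the low set. Control animal 4, first in score, had the lowest level of all. Summed adipocyte markers came to 622 to 992 CPM in the high set and 838 to 1096 CPM in the low set. The adipocyte median was -0.58 log2 on CPM and -0.49 with TMM scaling. On CPM it was -0.85 within control animals and -0.06 within high-fat animals. Omitting high-fat animal 1 gave -1.03, high-fat animal 5 -0.35, control animal 3 -0.34 and control animal 4 -0.21. Fabp4 (-0.02), Lipe (0.09) and Pparg (0.17), which adipocytes also express, were close to 0 or higher. All 7 nerve and Schwann cell genes had lower means in the high set (median -0.96 log2). Mbp, a myelin protein, had 32.4, 26.6, 18.3, 14.4 and 101 CPM in the high set, against 52.4, 856, 13.6, 23.4 and 69.2 CPM in the low set, where control animal 5 stood far above all other libraries. The list summed to 123 to 312 CPM in the high set and 204 to 2060 CPM in the low set. Without control animal 5 its median was -0.21 log2. Endothelial genes (median 0.13, 9 of 10 higher) and smooth muscle genes (0.12, 6 of 8 higher) lay slightly on the high side, with sums of 461 to 800.0 CPM and 448 to 832 CPM in the high set and 415 to 742 CPM and 372 to 751 CPM in the low set. Both medians turned negative without control animal 1, to -0.04 and -0.06. The part of these cell types in the difference in complex I was not tested.

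The 10 genes with the largest higher means among those that separated the sets were Rgs16, Spata20, Osgin1, Per3, Fam151a, Zfp772, Atp5g1, Fuom, Cox7c and Tmem116, with differences of 0.48 to 0.92 log2. Osgin1, an oxidative stress-induced growth inhibitor, had 18.4, 19.7, 23.3, 19.1 and 19.6 CPM in the high set, against 10.0, 12.0, 11.3, 12.2 and 10.9 CPM in the low set. The middle library had 21.3 CPM, like the high set. Rgs16, a regulator of G protein signalling, had 7.25, 11.7, 6.96, 12.9 and 6.81 CPM in the high set, against 5.12, 5.77, 5.63, 2.37 and 3.09 CPM in the low set, a difference of 0.92 log2 at low counts. Of these 10 and the 10 lower genes below, 19 of 20 separated the sets with TMM scaling as well, Cox7c being the exception. Among all genes outside the score, 46 of the 74 higher and 70 of the 143 lower ones did so. The 20 were chosen for the largest differences, so nothing is read from their count. In the fit of diet none of the 20 passed, with adjusted p of at least 0.974 (edgeR's quasi-likelihood test).

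The 10 genes with the lowest means relative to the low set were Tnnt2, Cdo1, Tecrl, Ckap4, Enah, Rassf4, Slfn13, Arhgap24, Nmi and Xirp2, at -0.75 to -1.94 log2. Tnnt2, cardiac troponin T, which skeletal muscle makes while developing or regenerating, had 16.3, 11.6, 19.5, 16.5 and 8.08 CPM in the high set, against 52.2, 27.9, 140.1, 49.5 and 52.2 CPM in the low set. The middle library, at 52.6 CPM, lay with the low set, and control animal 1 stood highest. Xirp2, an actin-binding protein of the Z-disc and of stressed sarcomeres, had 1188, 1472, 1725, 1996 and 1470.3 CPM in the high set, against 2160.0, 2456, 3115, 2841 and 2499 CPM in the low set, at -0.75 log2. Enah, an actin regulator of the Ena/VASP family, differed by -0.95 log2. On CPM, 69.9% of all genes had lower means in the high set. In a list of 11 Z-disc and strain genes drawn up after these values were seen, 9 were lower (median -0.34 log2). The 3 that separated the sets, Tnnt2, Enah and Xirp2, are the ones that prompted the list. The list's median was -0.12 without high-fat animal 1 and -0.54 without control animal 5, and it was 0.05 when the sets themselves were formed from TMM-scaled values. Cdo1, cysteine dioxygenase, differed by -1.22 log2. Of 15 genes of regeneration and denervation, 14 had lower means in the high set (median -0.69 log2, and -0.60 with TMM scaling). None of these genes separated the sets on either scaling. Chrna1, a subunit of the muscle acetylcholine receptor, had 21.7, 32.7, 44.6, 32.1 and 34.1 CPM in the high set, against 112, 47.3, 49.9, 32.7 and 161 CPM in the low set. High-fat animals 1 and 5 were highest, and control animal 3, low in score, was within the range of the high set.

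Chaperones and stress-response genes of the endoplasmic reticulum formed a further group on the low side, noticed after the values were seen. The list drawn up for them includes Xbp1, Ddit3 and Herpud1, which are not chaperones. Of 18 genes listed then, 16 had lower means in the high set (median -0.39 log2), and Hspa5 and Hsp90b1 separated the sets, against 1.35% of all genes on that side. Hspa5, which encodes the chaperone BiP, had 206, 185, 267, 219 and 252 CPM in the high set, against 513, 352, 363, 325 and 278 CPM in the low set, at -0.68 log2. Hsp90b1, which encodes GRP94, had 116, 81.9, 158, 119 and 129 CPM in the high set, against 233, 177, 201, 164 and 182 CPM in the low set, at -0.68 log2. With TMM scaling Hsp90b1 still separated and Hspa5 did not, and Ddit3 separated in the other direction. With sets formed from TMM-scaled values the list's median was -0.05 log2. Ckap4, a membrane protein that shapes endoplasmic reticulum sheets, had 73.9, 32.4, 38.6, 41.0 and 73.6 CPM in the high set, against 101, 83.6, 109, 138 and 116 CPM in the low set. Herpud1 (0.31) and Ddit3 (0.40), both induced by stress of this compartment, were the exceptions with higher means. The endoplasmic reticulum stress element is CCAAT and CCACG with any 9 bases between them, searched on either strand and also chosen after values were seen. It was in 7 of 15 matched promoters of the list (46.7%) and in 0.0657% of all promoters. Since the element was picked to go with this list, these shares describe the promoters and are no support for a difference between the sets. Hspa5 (chr3:38452766-38453065, plus strand) and Hsp90b1 (chr7:23012244-23012543, minus strand) are shown because both separated the sets, with the element in capitals. Hsp90b1 holds 2 elements, the second on the opposite strand.
Hspa5: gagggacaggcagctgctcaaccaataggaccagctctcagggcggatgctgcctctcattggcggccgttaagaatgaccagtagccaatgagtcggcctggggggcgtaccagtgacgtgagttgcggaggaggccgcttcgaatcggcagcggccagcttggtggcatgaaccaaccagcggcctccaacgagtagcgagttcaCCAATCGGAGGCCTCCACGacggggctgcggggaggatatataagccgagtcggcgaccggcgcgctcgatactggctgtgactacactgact
Hsp90b1: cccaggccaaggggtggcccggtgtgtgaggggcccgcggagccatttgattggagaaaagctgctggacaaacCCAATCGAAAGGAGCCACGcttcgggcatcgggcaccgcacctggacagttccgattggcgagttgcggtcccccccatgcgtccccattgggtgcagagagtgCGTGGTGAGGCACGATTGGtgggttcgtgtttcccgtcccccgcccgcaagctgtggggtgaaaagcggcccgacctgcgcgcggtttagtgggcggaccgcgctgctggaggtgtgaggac

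Clock genes lay on both sides of the score. Arntl, which encodes the activator BMAL1, had 9.84, 7.16, 5.20, 2.95 and 21.3 CPM in the high set, against 19.4, 9.73, 27.7, 60.8 and 45.2 CPM in the low set, at -1.71 log2. Its partners Clock (-0.67) and Npas2 (-0.52) also had lower means in the high set. Dbp, a target of the activators, had 184, 269.9, 368, 304 and 206 CPM in the high set, against 75.3, 276, 152, 40.8 and 68.8 CPM in the low set, at 1.39 log2. Per3, a repressor of the clock, had 29.0, 30.8, 25.9, 34.6 and 24.7 CPM in the high set, against 19.2, 22.2, 15.3, 12.8 and 20.7 CPM in the low set. It was the only clock gene of 11 that separated the sets, where 0.700% of all genes did so on that side. Control animal 5 was the exception in the low set, with Arntl at 9.73 CPM and Dbp at 275.8 CPM. Per1 (0.91, and 0.51 without control animal 3) and Per2 (0.70) had higher means.

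**Figure D3:**
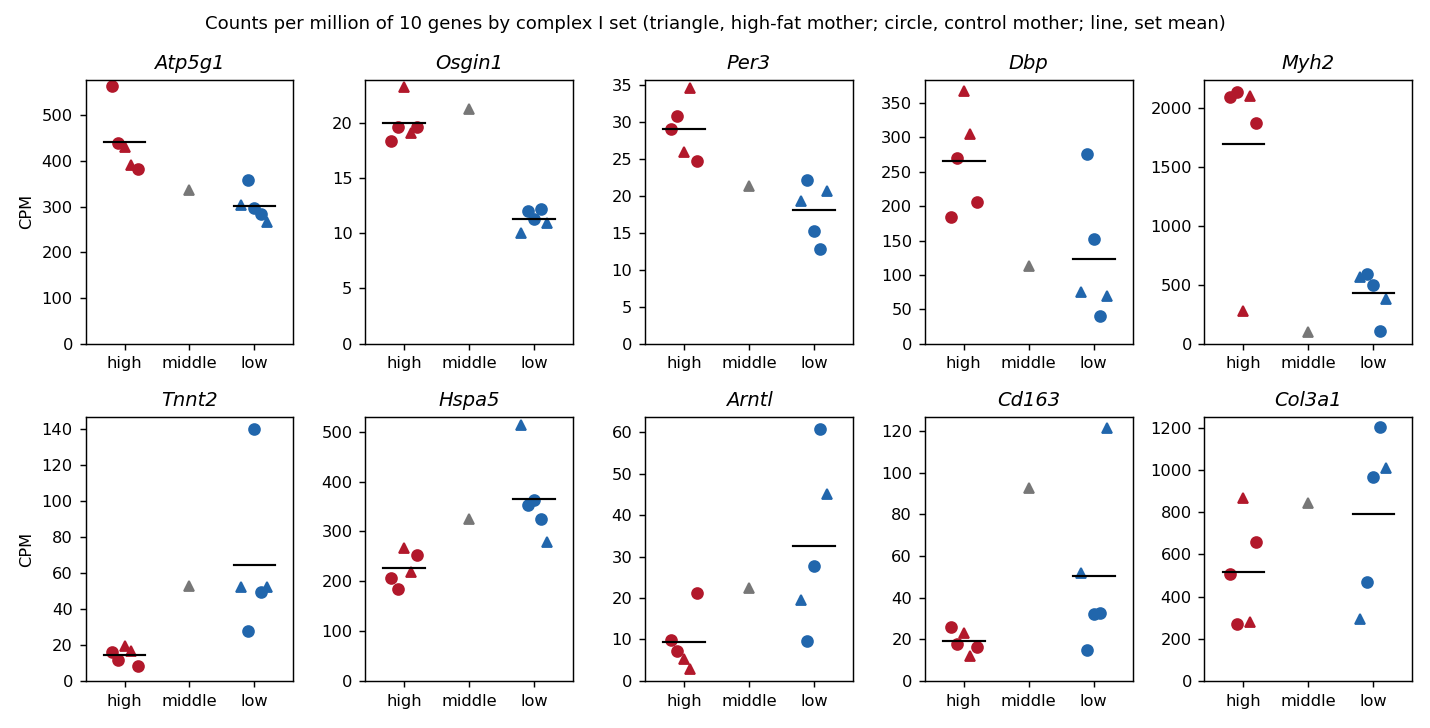
CPM of 10 genes (vertical axes start at 0) in the libraries of the high set, the middle library and the low set, with lines at the set means. Atp5g1, Osgin1, Per3, Tnnt2 and Hspa5 do not overlap between the sets, while Dbp, Myh2, Arntl, Cd163 and Col3a1 do.

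Of 13 measures of the animals, body weight was the one whose sets stood furthest apart. Rats of the high set weighed 831, 909, 884, 734 and 794 g, against 609, 760, 704, 642 and 625 g in the low set. Means were 830.4 ± 70.1 g and 668 ± 62.8 g (SD, n = 5 each) in the high and the low set, and high-fat animal 4, the middle library, weighed 900 g. The difference of 162 g had p = 0.0159 in an exact two-sided permutation test over 252 splits. After Benjamini-Hochberg adjustment over the 13 measures p was 0.206, so it failed the correction. All 5 rats of the high set were above the mean of the low set, as they were for mesenteric fat, liver and pancreas weight. Leaving out single animals gave 143 to 187 g, whereas sets formed from TMM-scaled scores gave 67.2 g (exact permutation p = 0.397). Liver weighed 25.5 ± 2.72 g in the high set and 19.2 ± 5.06 g in the low set (exact permutation p = 0.0476, adjusted 0.241). Mesenteric fat weighed 10.7 ± 1.501 g in the high set and 7.65 ± 2.44 g in the low set (exact permutation p = 0.0556, adjusted 0.241). Total fat as a share of body weight was 7.24 ± 1.54% and 7.29 ± 5.12% in the high and the low set (exact permutation p = 0.992). The index of insulin resistance HOMA-IR was 13.5 ± 3.58 in the high set (n = 5) and 10.9 ± 1.86 in the low set (n = 4, 1 animal without a value; exact permutation p = 0.246). No measure passed the adjusted threshold of 0.05.

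**Figure D4:**
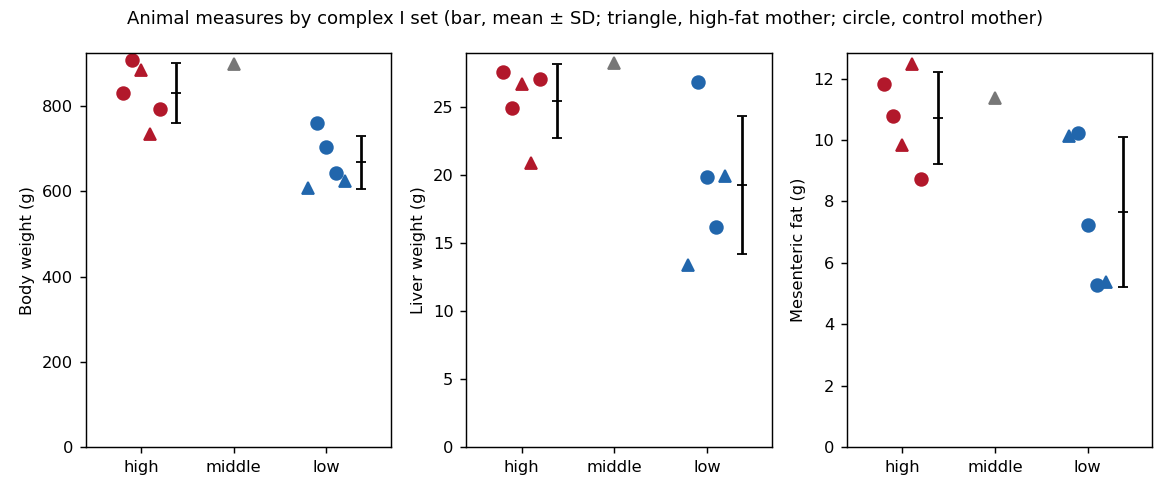
Body weight, liver weight and mesenteric fat (vertical axes in g, starting at 0) of the animals of the high set, the middle library and the low set; bars are means ± SD. Body weights of the high set, 734 to 909 g, overlap those of the low set, 609 to 760 g, by 1 animal of each set.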

How the data were processed

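Per the labels, polyadenylated RNA of whole soleus was sequenced on a Genome Analyzer IIx. The authors deposited raw counts per gene symbol for 11 libraries. FastQC, BWA, HTSeq and edgeR are listed in the submitters' processing notes, without versions, and for the genome build, the annotation and the treatment of strand: not given in the sources used here. The table has 16810 rows, of which 24 had names turned into dates (0.107% of counts), and 2712 rows held no count. Antisense or overlapping genes and near-identical copies, such as ribosomal protein genes, myosin heavy chains and metallothioneins, are uncertain with 36-base reads.

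From the deposited counts, CPM, the score and the sets were computed as the report states, with a pseudocount of 1, and log2 differences are the mean of the high set minus that of the low set on the log2(CPM + 1) scale, which understates changes of low genes. The 2 sets of a gene did not overlap when the lowest value of one lay above the highest of the other. The members, the lists and the contrast were chosen with earlier results of these data known. Named genes were the 10 per direction with the largest difference among those without overlap and with at least 5 CPM on average, up to 3 per list by absolute difference at 1 CPM or more, and a short set of always named genes. Pvalb, Actn3, Clock, Npas2, Per2, Ms4a1, S100a8, S100a9, Csf3r, Fabp4, Lipe, Pparg, Herpud1 and Ddit3 were named after their values were seen. Some genes that the rule names are not reported here.

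Diet was tested with edgeR 4.0.16 (R 4.3.3; TMM factors, filtered genes, all 11 libraries) on the counts, and the code was tested on simulated data. DESeq2 1.42.0 and limma 3.58.1 were alternatives. Fisher's exact test used SciPy 1.17.1, and the exact permutation tests went through all splits with code written for the purpose. Each library is a rat from its own litter. Library pairs differed beyond counting noise (chi-square per degree of freedom of at least 24.0). A count of 3 corresponds to 0.195 to 0.295 CPM. Promoters came from RefSeq GRCr8. A comparison by transcript length was not run, since no lengths were used here.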

Additional observations from a re-analysis of the deposited data

Results flagged for a closer look

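Of 268 sets of values examined, 23 held 1 library or animal far from the rest of its set by Dixon's criterion. Chance meets it in about 5% of sets where values are independent and normally distributed. These sets reuse the same libraries and hold CPM values without a log, so no excess is read from the count. Among the leading genes the values flagged were Osgin1 in high-fat animal 3 of the high set (23.28 CPM), Tnnt2 in control animal 1 of the low set (140.1 CPM), and Enah in control animal 6 of the high set (52.22 CPM). Within the score it was Ndufb2 in control animal 4 (498.5 CPM). High-fat animal 3 of the high set was apart in 4 further genes, being low for the fast-fibre gene Myh2 (274.5 CPM) and the glycolytic gene Eno3 (1672 CPM) and high for Postn (113.1 CPM) and Thbs4 (562.1 CPM), both of the matrix.

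Control animal 5 of the low set was apart for Myh1 (567.2 CPM) and Mbp (855.7 CPM). Control animal 2 of the high set was apart for Myh4 (156.5 CPM), Mbp (100.6 CPM) and the nerve list score (0.3668), and control animal 4 for the adipocyte list score (-1.173). High-fat animal 5 of the low set was apart for Timp1 (55.2 CPM), Cd4 (107 CPM) and Cdkn1a (372.2 CPM), and high-fat animal 1 for Csrp3 (2405 CPM).

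Among animal measures, high-fat animal 1 of the low set was highest for perirenal fat (75.31 g), total fat (99.09 g) and fat as a share of body weight (16.27%). Control animal 2 was lowest of the high set for abdominal fat (8.862 g), and high-fat animal 2 for heart weight (1.493 g).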

How the results depend on the processing

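Leaving out 1 library at a time gave 93 to 151 genes higher and 163 to 395 lower without overlap, against 74 and 143 with all 10, and fewer libraries make a separation easier by construction. The counts moved by over 1.5 times without high-fat animal 3 (151 and 392), control animal 2 (114 and 344), high-fat animal 1 (123 and 395), control animal 5 (150 and 387) and, for lower genes, control animal 3 (293). Other choices of libraries gave, as higher and lower genes, 495 and 1939 for the 3 highest against the 3 lowest, 1210 and 2062 within high-fat animals, 465 and 1120 within control animals, 183 and 376 without the lowest 2 libraries, and 161 and 216 without the highest 2. With the middle library in place of the lowest of the high set 46 genes were higher, and in place of the highest of the low set 242 were lower. Both placements, the omission of the 2 libraries at each end, the score with paralog rows and the sets formed from TMM-scaled values were chosen after seeing the data.

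Rescaling changed the sets themselves: with TMM and with RLE high-fat animal 1 moved from the low to the high set, control animal 2 left the high set, and high-fat animal 4, the middle library, joined the low set. DESeq2's size factors (RLE) kept 3 of 5 low libraries and gave 115 and 83 genes on the original sets, TMM gave 90 lower genes, and sets formed from TMM-scaled values gave 212 higher. The slow-fibre median was 0.0313 with TMM, 0.0400 with RLE, 0.0625 for the 3 highest against the 3 lowest, 0.0586 within high-fat animals and 0.168 with sets from TMM-scaled values. The Z-disc list was at 0.0501 in the last case. These sets also gave brain weight at -0.147 g, glucose at -1.16 mmol, HOMA-IR at -2.24 and fat at 3.39% of body weight. Fat as a share of body weight was 1.54% by medians and -0.933 to 2.20% with single animals left out, and brain weight was -0.0409 to 0.0508 g. DESeq2 called 7 genes for diet. Causes of these changes were not tested.

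No paired analysis was possible because replicate numbers only name animals and every rat came from its own litter. With 5 libraries a set, near ties at ranks 4 to 9 limit which libraries belong where.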

Other observations

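Protein synthesis and breakdown genes differed little between the sets. The 70 measured cytosolic ribosome genes had a median difference of -0.01 log2 (0.06 with TMM scaling), with 33 higher and 37 lower in the high set. Of 37 proteasome genes 31 had lower means (median -0.08 log2), but with TMM scaling the median was 0.02 with 20 higher, so the direction depended on the scaling. The 10 genes of atrophy and glucocorticoid response had a median of 0.09 log2, with 6 higher and 4 lower, and -0.02 without control animal 3. All 6 red blood cell genes had higher means in the high set (median 0.16 log2, 0.02 within control animals and 0.40 within high-fat animals). The median was 0.05 without high-fat animal 1, and it was -0.06 with the middle library in place of the highest of the low set and -0.07 with sets formed from TMM-scaled values. Red blood cell genes had sums of 1072 to 1345 CPM in the high set and 772 to 1444 CPM in the low set. The 12 insulin action genes had a median of -0.07 log2 on CPM and 0.03 with TMM scaling.

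The middle library, high-fat animal 4, stood apart in metallothioneins, which bind metals and respond to glucocorticoids. Mt2A was at 46.4 CPM there, against at most 7.48 CPM in the other 10 libraries, and Mt1a at 38.0 CPM, against at most 5.75 CPM. The same animal had the highest HOMA-IR of the animals with a value, 32.1.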
